A study of Mus musculus with 11 samples.

Results

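The genes described here encode secreted proteins of 2 kinds, those with a whey acidic protein (WAP) domain and antimicrobial proteins of other families. They are Wfdc1, Wfdc2, Wfdc3, Wfdc10, Wfdc15b, Wfdc18 and Slpi of the first kind and Camp, Lcn2 and Ltf of the second. Members were probe sets whose only annotated gene symbol is one of these 10 symbols, which gave 10 probe sets for 9 genes among 45101 probe sets and 18194 genes. Wfdc10 had no probe set of its own and is named only. The 10 genes were picked from their differences in signal between SV, RT and ST in these same arrays, so their differences between regions are given as a description and no p-value is printed for them.

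RNA was compared between 3 regions of the testis on Affymetrix Mouse Genome 430 2.0 arrays, with 4 arrays of the Sertoli valve (SV), 3 of the rete testis (RT) and 4 of the convoluted seminiferous tubules (ST). All mice were W/Wv mice at 7 weeks of age, whose testes are depleted of germ cells by mutations in Kit, so that SV and ST epithelia consist mainly of Sertoli cells. The RT is the network of ducts that collects fluid from the tubules, and the SV is the narrow end of each tubule that opens into it. Trypan blue solution was injected through the efferent ducts of every testis, pieces were cut by hand, and the pieces of 20 testes were pooled for an array. SV pieces continue into the RT, and the methods state that they probably held some RT-derived cells. No untreated or wild-type testes were put on arrays, and replicate spread below is the spread between such pools.

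A WAP domain is a small fold held together by disulfide bonds, and many proteins that carry it block serine proteases or kill bacteria at mucosal surfaces. Cathelicidin, lipocalin 2 and lactoferrin are stored in neutrophil granules, and lipocalin 2 and lactoferrin are also secreted by epithelia, where both deprive bacteria of iron. In the male tract, many WAP-domain genes are known as products of the epididymis and accessory glands.

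Promoters of 3 members are shown because these genes carried the 3 patterns described below. Wfdc18 was highest in SV and Wfdc2 was highest in RT. Lcn2 was bright in all regions and lay above ST in both SV and RT, by under 2-fold. Each sequence is the 250 bases before the annotated start in RefSeq (build GRCm38.p6), 5′ to 3′ on the gene's own strand, with a motif match in capitals. In Wfdc18 (chr11:83708754-83709003, plus strand) the capitals mark TATAAA, 31 to 26 bases before the start. In Wfdc2 (chr2:164562465-164562714, plus strand, the first of 2 listed starts) they mark an E-box, CAGGTG on the opposite strand, 150 to 145 bases before the start. In Lcn2 (chr2:32387740-32387989, minus strand) they mark a C/EBP-like match, TTNNGCAA on the opposite strand, 216 to 209 bases before the start.
Wfdc18: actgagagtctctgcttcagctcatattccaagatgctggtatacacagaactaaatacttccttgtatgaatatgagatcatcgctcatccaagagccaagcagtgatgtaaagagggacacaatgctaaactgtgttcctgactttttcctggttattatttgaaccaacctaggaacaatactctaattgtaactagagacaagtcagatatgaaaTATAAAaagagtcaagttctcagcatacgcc
Wfdc2: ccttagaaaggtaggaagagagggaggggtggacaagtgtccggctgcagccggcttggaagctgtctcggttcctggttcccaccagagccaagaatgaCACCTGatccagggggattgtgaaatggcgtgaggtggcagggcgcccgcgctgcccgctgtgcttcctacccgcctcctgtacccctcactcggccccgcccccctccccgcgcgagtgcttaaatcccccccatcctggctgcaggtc
Lcn2: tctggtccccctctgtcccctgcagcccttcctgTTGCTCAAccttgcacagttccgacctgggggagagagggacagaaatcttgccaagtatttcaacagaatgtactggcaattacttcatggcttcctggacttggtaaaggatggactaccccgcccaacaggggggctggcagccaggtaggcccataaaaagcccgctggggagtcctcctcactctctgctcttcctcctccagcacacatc
Promoters of the 10 genes other than Wfdc1, for which no promoter sequence was at hand, were searched on both strands for 6 motifs. TATAAA was found in 1 of those searched, Wfdc18, and in 12.4% of 32851 mouse promoters of this length. TTNNGCAA was found in 3, Slpi, Lcn2 and Ltf, and in 9.56% of all promoters. CAGGTG was found in 3, Wfdc2, Slpi and Ltf, and in 17.2% of all promoters. The nuclear receptor motif AGGTCA was found in 4, Wfdc3, Wfdc10, Wfdc15b and Ltf, and in 14.0% of all. The androgen and glucocorticoid receptor motif AGAACA was found in 1, Wfdc15b, and in 16.1% of all. The NF-kB motif (GGG, then NN, then TTTCC), found in 1.41% of all, was in none of the members searched. These are matches of letters in a window, and binding at them was not measured.

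Markers of rete testis epithelium and of Sertoli cells differed between RT and the other labelled regions. Their lists were written with earlier results of these data known, so they are no independent check of the labels. Among 14 measured markers of rete testis epithelium, SV exceeded ST for 9, RT exceeded ST for 13, and SV was below RT for 13. Among 16 markers of Sertoli cells, RT was below ST for 11, SV exceeded RT for 10, and none was called between SV and ST (7 were lower in SV at an unadjusted p under 0.05 by limma, and 2 by the methods' t-test with over 2-fold, and 2, Rhox5 and Fshr, were called lower with a replicate block, that is, with the replicate number as a term in the fit). A gene was called, here and below, where it differed over 2-fold at an adjusted p under 0.05 (limma, Benjamini-Hochberg over all probe sets). Each array was scaled to the same trimmed mean, and its median signal was 65.8 to 110.4. In such bulk pieces, fewer cells of a type and less RNA per cell cannot be told apart.

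Of the 9 measured genes, 2 were called higher in SV than in ST, Wfdc2 and Wfdc18, and none was called lower; 1.5% of all probe sets were called higher and 0.0665% lower. In RT, 3 were called higher than in ST, Wfdc2, Wfdc3 and Wfdc15b, where 10.2% of all probe sets were called higher, and 1 lower, Wfdc1, where 5.48% were. Between SV and RT, 3 were called higher in SV, Wfdc1, Wfdc18 and Camp, where 2.95% of all probe sets were, and 1 lower, Wfdc2, where 4.99% were. The median log2 fold change of the 9 genes was 0.83 in SV against ST, 0.70 in RT against ST and 0.10 in SV against RT, beside medians of 0.00, 0.13 and -0.11 over all probe sets. With median centring of the arrays, the median over all probe sets shifted to -0.11, -0.29 and 0.20 in these comparisons. With the replicate block in the comparisons of SV, whose same-numbered arrays deviated together, SV exceeded ST for 3, Camp added, and was below it for none, where 2.21% of all probe sets were called higher and 0.231% lower. With that block, SV exceeded RT for 3, where 3.32% of all probe sets were called, and was below RT for 3, Wfdc3 and Wfdc15b added, where 7.97% were. Since the values chose the genes, nothing is read from these shares. The 3 comparisons share their arrays.

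**Figure D1:**
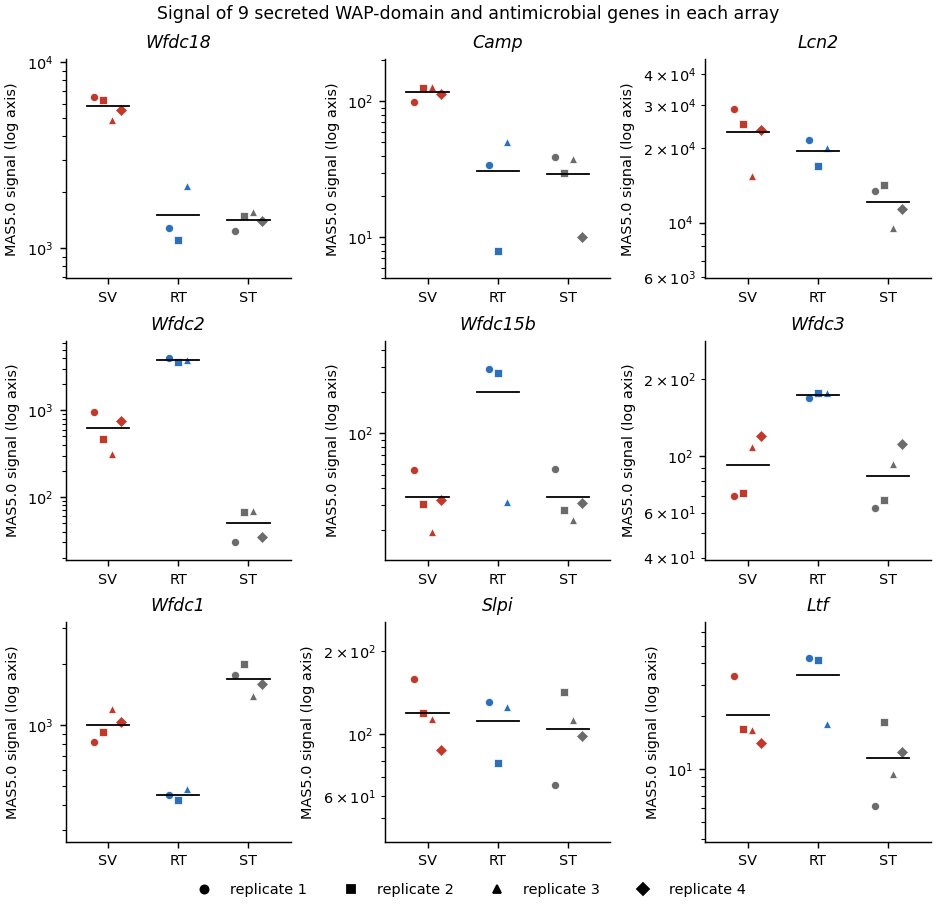
MAS5.0 signal (log axis) of the 9 measured genes in each array, with SV, RT and ST from left to right in each panel; points are arrays, shaped by replicate number, and bars are region means. Wfdc18 and Camp had all 4 SV arrays above those of RT and ST, Wfdc2 stood apart in all 3 regions with RT highest, and Slpi and Ltf overlapped between regions.

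Wfdc18, also known as Expi, encodes a small WAP-domain protein first described as an extracellular proteinase inhibitor of the mammary gland. Its signal was 6510.0, 6300.1, 4869.9 and 5546 in the 4 SV arrays, against 1291, 1103 and 2156 in the RT arrays and 1244, 1493, 1568 and 1394 in the ST arrays. Every SV array lay above every RT and ST array, and RT and ST overlapped; 4.64% of all probe sets had SV above ST and 10.1% had SV above RT without overlap. Mean signal was 5806 ± 749 in SV, 1517 ± 562 in RT and 1425 ± 139.9 in ST (errors here and below are the SD over 4, 3 and 4 arrays). SV exceeded ST by a log2 fold change of 2.02 ± 0.18 (standard error), or 4.06-fold, and exceeded RT by 1.99 ± 0.20, or 3.97-fold. RT differed from ST by 0.03 ± 0.20. Over all probe sets, 32 probe sets of 29 genes were called higher in SV than in both ST and RT, and Wfdc18 was the member gene among them; with the replicate block they were 44 probe sets, and Camp was among them as well. The Wfdc18 probe set is of the kind that may match several transcripts. The neighbouring WAP-domain gene Wfdc17 had 1342 to 2111 in SV, 1473 to 1711 in RT and 1711 to 2207 in ST, with log2 fold changes of -0.17 in SV against ST (limma adjusted p = 0.710) and 0.02 in SV against RT (limma adjusted p = 0.950). A further WAP-domain gene, Wfdc21, was at 42.6 or less in every array.

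Camp encodes the precursor of the cathelicidin antimicrobial peptide. It had signals of 99.6, 124.8, 128 and 113 in SV, against 33.8, 7.99 and 50.6 in RT and 39.0, 29.7, 37.8 and 10.1 in ST. The SV arrays did not overlap with either other region. The RT and ST signals are low on the arrays, where the median probe set is near 79.9, and the SV signals lie somewhat above that. Camp averaged 116 ± 12.9 in SV, 30.8 ± 21.5 in RT and 29.1 ± 13.4 in ST. The log2 fold change was 2.28 ± 0.63 in SV against RT, which was called, and 2.17 ± 0.59 in SV against ST, which was not. With the replicate block it was 2.17 ± 0.52 in SV against ST, which was called. Both calls were unsteady: that against RT was lost in 8 of 24 alternative settings, among them when any 1 of SV replicates 2, 3 and 4 or RT replicates 1 and 2 was left out (log2 fold change 1.49 to 2.82 over all arrays left out in turn, and 1.61 with a floor of 32), and that against ST was gained in 7 of 24, among them the methods' t-test without adjustment, SV and ST fitted alone, a floor of 32 (1.73), log2(signal + 32) (1.31), both blocks and leaving out RT replicate 2.

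Camp is best known as a neutrophil gene, so neutrophil markers were set beside it. Of 24 listed neutrophil genes, 18 were measured, and none was called by limma between SV and ST or between RT and ST. At an unadjusted p under 0.05, limma gave 0 higher and 1 lower in SV against ST and 2 higher and 1 lower in RT against ST, and the methods' t-test with over 2-fold gave 1 lower in the first and 1 higher in the second. In SV against RT, 1 was called higher, Padi4, a histone-modifying enzyme (1.36 ± 0.42, limma adjusted p = 0.0454). The summed signal of the 18 was 595 to 868 in SV, 463 to 797 in RT and 398 to 630.1 in ST, and 15 to 18 of them were under a signal of 100 in each array. The calprotectin gene S100a8 had 11.6, 36.8, 1.96 and 108 in SV, 51.3, 44.8 and 146 in RT, and 18.1, 6.44, 31.3 and 29.9 in ST. Its partner S100a9 was between 2.74 and 88.5 in SV, between 33.9 and 114 in RT and between 2.95 and 25.3 in ST. Whether neutrophils contributed to the Camp signal was not tested.

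Lcn2, whose protein binds the iron carriers of bacteria, lay above ST in both other regions. Its signal was 28769.6, 25034, 15477 and 23675 in SV, against 21556, 16925 and 20085 in RT and 13429.5, 14204, 9503 and 11335 in ST. All SV and all RT arrays lay above all ST arrays, while SV and RT overlapped; 20.1% of all probe sets had RT above ST without overlap. Lcn2 averaged 23239 ± 5605 in SV, 19522 ± 2366 in RT and 12118 ± 2123 in ST. The log2 fold change was 0.92 ± 0.19 in SV against ST (1.89-fold) and 0.70 ± 0.21 in RT against ST (1.62-fold), both under the 2-fold threshold and so not called. SV against RT gave 0.22 ± 0.21. SV replicate 3 was the lowest SV array, and without it, or without ST replicate 2, Lcn2 passed the threshold in SV against ST, with log2 fold changes up to 1.10. SV replicate 3 was also the SV array with the lowest rete testis and Leydig cell marker sums. These were 5123 against 6373 to 11162 and 28088 against 53823 to 68173 in the other SV arrays. Its macrophage, endothelial, mesothelium and neutrophil marker sums were the lowest of the SV arrays too. Its Sertoli cell marker sum was the highest, 150202 against 111672 to 127467, as were its germ cell, red blood cell and duct marker sums. The part of these cell types in the Lcn2 values was not tested.

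**Figure D2:**
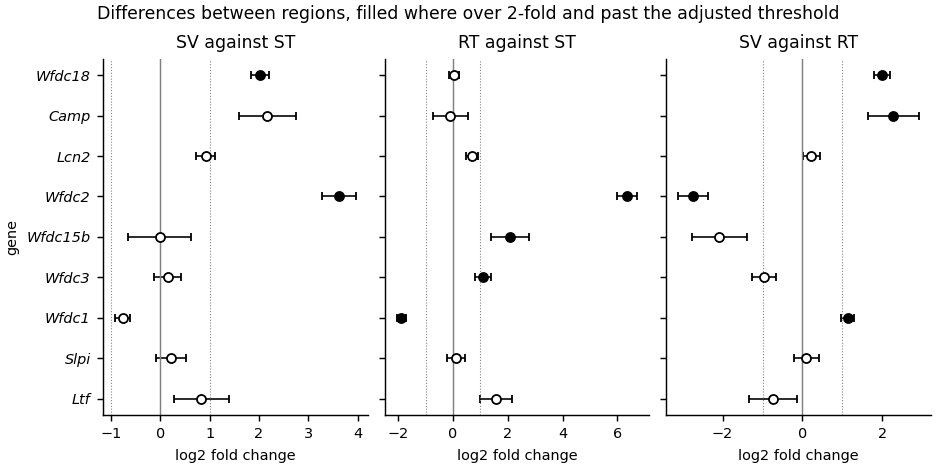
Log2 fold changes (x axis) of the 9 genes (y axis) in SV against ST, RT against ST and SV against RT, with bars for the limma standard error; filled points were called (over 2-fold and adjusted p under 0.05), and dotted lines mark 2-fold. Wfdc18 had 2.02 and 1.99 in the comparisons of SV and 0.03 in RT against ST, whereas Wfdc2 had 6.35 in RT against ST.

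Wfdc2 encodes the epididymal protein HE4, a WAP-domain protein of ducts and glands. It had 954, 466, 312 and 762 in SV, 3969, 3651 and 3800.0 in RT, and 30.1, 66.5, 68.1 and 34.3 in ST. The regions did not overlap, with RT highest and ST below 100 in every array; 15.4% of all probe sets had SV below RT in this way. Wfdc2 averaged 623 ± 289 in SV, 3807 ± 159 in RT and 49.8 ± 20.4 in ST. SV exceeded ST by a log2 fold change of 3.62 ± 0.34 (12.3-fold), RT exceeded ST by 6.35 ± 0.37 (81.8-fold), and SV was below RT by 6.67-fold (-2.74 ± 0.37). In RT against ST it ranked 65 of all 45101 probe sets from the highest fold change.

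Wfdc2 varied among SV arrays, and rete testis epithelium markers varied alongside it. Its excess over ST, as a percentage of the mean excess in RT, was 24.1, 11.1, 6.98 and 18.9% in SV replicates 1 to 4, a mean of 15.3 ± 7.68% (SD, n = 4). The median of 13 rete testis markers called in RT against ST was 19.6, 10.2, 8.11 and 16.1% in the same arrays, a mean of 13.5 ± 5.28%. Both were highest in replicate 1 and lowest in replicate 3. Single markers ranged between -3.77 and 33.6%, so Wfdc2 lay within their range in each SV array. How much of the Wfdc2 signal in SV came from RT-derived cells was not tested.

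**Figure D3:**
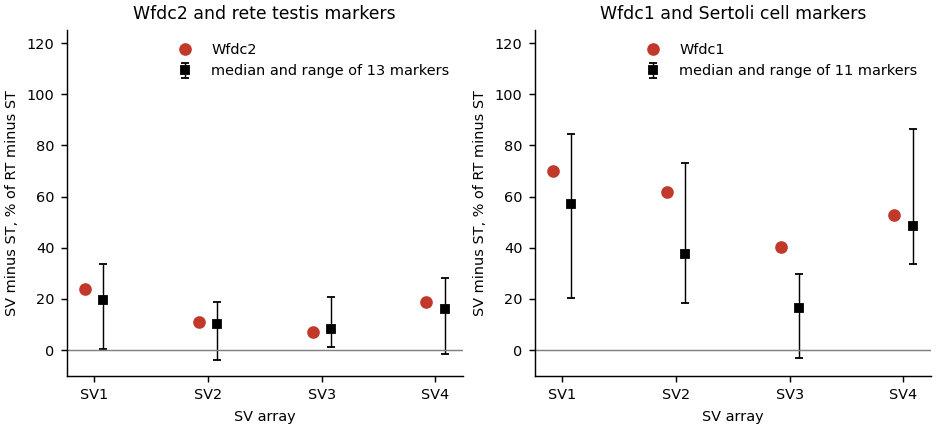
Position of the 4 SV arrays between ST and RT, given as the SV minus ST difference in percent of RT minus ST (y axis), for Wfdc2 beside 13 rete testis markers and for Wfdc1 beside 11 Sertoli cell markers; red points are the member gene, and squares and bars are the median and range of the markers. Wfdc2 was at 6.98 to 24.1% and within the range of the rete testis markers in each array, and Wfdc1 was at 40.1 to 70.0%.

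Wfdc1, also known as ps20 and first described as a growth inhibitor from prostate stroma, ran in the opposite direction. Its signal was 821, 921, 1191 and 1035 in SV, against 447, 423 and 479 in RT and 1763, 2007, 1384 and 1597 in ST. SV lay between RT and ST without overlap; 2.81% of all probe sets had SV below ST and 13.6% had RT below ST in this way. Wfdc1 averaged 992 ± 159 in SV, 449.6 ± 28.0 in RT and 1688 ± 263 in ST. RT was below ST by 3.72-fold (-1.90 ± 0.16, called), and SV was above RT by 2.19-fold (1.13 ± 0.16, called). SV against ST gave -0.77 ± 0.15, which was under 2-fold and not called. The drop of Wfdc1 below ST in SV was 70.0, 61.9, 40.1 and 52.7% of that in RT in replicates 1 to 4 (56.2 ± 12.8%). For 11 Sertoli cell markers called lower in RT, the median was 57.1, 37.7, 16.5 and 48.7%, and again replicate 3 was the lowest. Wfdc1 was above the highest of these 11 markers in SV replicate 3, where they reached 29.7%, and within their range in the other SV arrays.

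Wfdc15b encodes a protein with a single WAP motif and antibacterial activity in mice. It had 54.2, 30.9, 19.4 and 33.1 in SV, 293, 273 and 31.8 in RT, and 54.9, 27.6, 23.7 and 31.5 in ST. RT replicates 1 and 2 were far above all other arrays, and RT replicate 3 lay within the range of SV and of ST. RT against ST gave a log2 fold change of 2.06 ± 0.69, which was called, but the call was lost in 15 of 24 alternative settings, among them leaving out any 1 of RT replicates 1 and 2, SV replicates 2 and 4, and ST replicates 2, 3 and 4. Leaving out 1 array at a time gave 1.51 to 3.12. SV against RT gave -2.08 ± 0.69, not called, but called with the replicate block (-2.08 ± 0.51), and SV against ST gave -0.02 ± 0.64.

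Some markers of the efferent ducts and epididymis differed between the RT arrays in the same way and others did not. Of 15 measured, 7 were called higher and 2 lower (Defb19 and Tcfl5) in RT than in ST. RT replicate 3 was below RT replicates 1 and 2 for 8, above both for 5 and between them for 2. Defb19 and Tcfl5 were among the 5 above both, and being higher in ST they do not mark duct tissue in these arrays. The epididymal gene Adam7 had 166, 214 and 14.7 in RT replicates 1, 2 and 3, and 2.54 to 21.2 in ST. The duct sodium-proton exchanger gene Slc9a3 had 1196, 1093 and 256 in RT and 44.5 to 60.6 in ST. Lrp2, the endocytic receptor megalin of ducts, had 762, 641 and 107 in RT and 7.93 to 36.4 in ST, and the water channel gene Aqp1 had 4144, 3109 and 878 in RT and 35.6 to 48.2 in ST. The chloride channel gene Cftr, in contrast, had 1441, 1255 and 1432 in RT and 17.5 to 33.8 in ST. The median log2 difference of all 15 measured duct markers from their ST means was 1.70, 1.72 and 0.63 in RT replicates 1, 2 and 3, against -0.16 to 0.12 in the ST arrays. Rete testis markers were lowest in RT replicate 3 too, with a median of 6.64, 6.39 and 5.45. They were not alike in this: the transcription factor gene Pax8 had 3690.0, 3319 and 2831 in RT, whereas the membrane gene Prom1 had 5031, 5088 and 1160.2. Wfdc2, as given above, had nearly equal signals in the 3 RT arrays. Markers of the tubules were highest in RT replicate 3. Sertoli cell marker sums were 59209, 60639 and 80195 in RT replicates 1, 2 and 3, and peritubular myoid sums were 3645, 3900 and 7351. Whether efferent duct tissue in the pieces of RT replicates 1 and 2 contributed to the Wfdc15b signal was not tested. The part of tubule tissue in RT replicate 3 was not tested either.

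**Figure D4:**
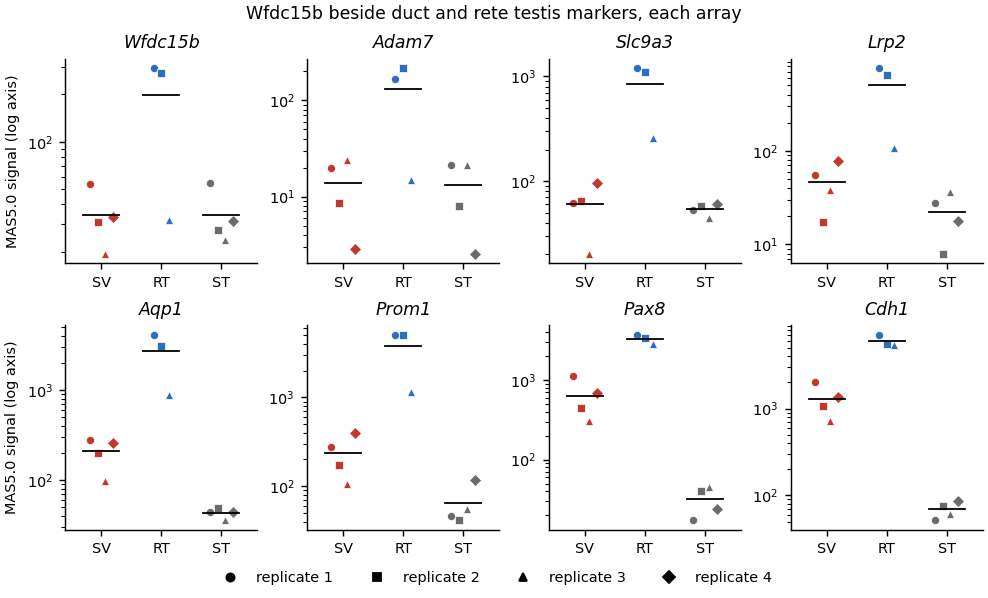
MAS5.0 signal (log axis) of Wfdc15b beside 4 duct markers (Adam7, Slc9a3, Lrp2, Aqp1) and 3 rete testis markers (Prom1, Pax8, Cdh1) in SV, RT and ST arrays; points are arrays, shaped by replicate number, and bars are region means. RT replicate 3 was below RT replicates 1 and 2 in each panel, at 31.8 against 273 and 293 for Wfdc15b but at 2831 against 3319 and 3690.0 for Pax8. All markers drawn are from those with RT replicate 3 lowest, 8 of 15 duct and 11 of 14 rete testis markers. For 5 of the 15 duct markers, not drawn, RT replicate 3 was above both others. Defb19 and Tcfl5, called lower in RT than in ST, were among these.

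Wfdc3, a WAP-domain gene of the same cluster as Wfdc2, had 69.5, 71.9, 108 and 120.4 in SV, against 169, 176 and 178 in RT and 62.6, 67.3, 93.1 and 112 in ST. All 3 RT arrays were above all others, and SV and ST overlapped. It averaged 92.5 ± 25.7 in SV, 174 ± 4.51 in RT and 83.6 ± 23.0 in ST. RT against ST gave a log2 fold change of 1.10 ± 0.30, just past 2-fold, and SV against RT gave -0.96 ± 0.30, just short of it, but was called with the replicate block (-1.10 ± 0.24). The call between RT and ST was lost in 6 of 25 alternative settings, among them without RT replicate 2 (1.09) and without ST replicate 1 (0.97), and with quantile normalization or median centring of the arrays. A dimmer probe set of Wfdc3 did not show the separation: it had 31.99, 53.3, 65.4 and 66.1 in SV, 46.0, 56.7 and 81.9 in RT and 46.2, 43.9, 38.8 and 39.9 in ST, with 0.51 ± 0.38 in RT against ST.

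Slpi, the secretory leukocyte peptidase inhibitor that blocks neutrophil elastase, did not separate the regions. It had 158, 119, 114 and 87.5 in SV, 131, 79.0 and 125.3 in RT, and 65.6, 142, 112 and 98.7 in ST. These ranges overlapped throughout, with means of 119.7 ± 29.3 in SV, 112 ± 28.5 in RT and 105 ± 31.8 in ST. The log2 fold changes were 0.21 ± 0.30 in SV against ST, 0.11 ± 0.33 in RT against ST and 0.10 ± 0.33 in SV against RT, each smaller than its standard error.

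Ltf, which encodes the iron-binding protein lactoferrin, was dim in all regions. It had 33.7, 16.7, 16.6 and 14.0 in SV, 42.4, 41.6 and 17.9 in RT, and 6.17, 18.4, 9.29 and 12.4 in ST. No region stood apart, since RT replicate 3 fell inside the ST range, and RT replicates 1 and 2 were the highest arrays, as for Wfdc15b. The log2 fold change was 0.83 ± 0.55 in SV against ST, 1.56 ± 0.60 in RT against ST and -0.73 ± 0.60 in SV against RT, none of them called. Without RT replicate 3 it was called in RT against ST, at 1.97, whereas with a floor of 32 the difference was 0.26 and not called; the methods' t-test without adjustment and limma without the intensity trend also called it.

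Several of these genes lie together. Lcn2, Wfdc15b, Slpi, Wfdc2, Wfdc10 and Wfdc3 are on chromosome 2, Wfdc1 is on chromosome 8, Camp and Ltf are on chromosome 9, and Wfdc18 is on chromosome 11. From Wfdc5 to Wfdc3, the RefSeq order of chromosome 2 holds 32 protein-coding genes, of which 22 were measured, among them the 4 members Wfdc15b, Slpi, Wfdc2 and Wfdc3. The other 18 were not chosen for their values. Of these 18, 2 were called higher in SV than in ST, Svs5 and Svs6, and none lower, and in RT against ST 1 was called higher, Svs6, and 2 lower, Sys1, a Golgi protein gene, and Eppin. Sys1 gave -1.04 in RT against ST (limma adjusted p = 0.000140) and lost its call without RT replicate 3 or ST replicate 1. SV exceeded RT for 1 gene, the dim WAP-domain gene Wfdc5 (3.07 ± 0.80, limma adjusted p = 0.0215), which lost its call without any 1 of the RT arrays or SV replicates 2 and 3 and with a floor of 32 (0.20).

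Svs5 and Svs6 encode secretory proteins of the seminal vesicle. Svs6 had 368, 355, 132 and 305 in SV, against 341, 369.6 and 437 in RT and 47.9, 61.7, 79.3 and 66.8 in ST. SV and RT arrays all exceeded ST arrays, by a log2 fold change of 2.10 ± 0.31 in SV (limma adjusted p = 0.00231) and 2.596 ± 0.33 in RT (limma adjusted p = 7.35e-05). Svs5 had 2199, 2201, 1025 and 2402 in SV, against 782, 1157 and 1176 in RT and 726, 526, 697 and 852 in ST. It was higher in SV than in ST by 1.43 ± 0.25 (limma adjusted p = 0.00934), while SV against RT gave 0.86 ± 0.27 (limma adjusted p = 0.0531), with SV replicate 3 inside the RT range. The call of Svs5 in SV against ST was lost with a floor of 32 and with limma without the intensity trend. Its probe set may also match related transcripts.

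**Figure D5:**
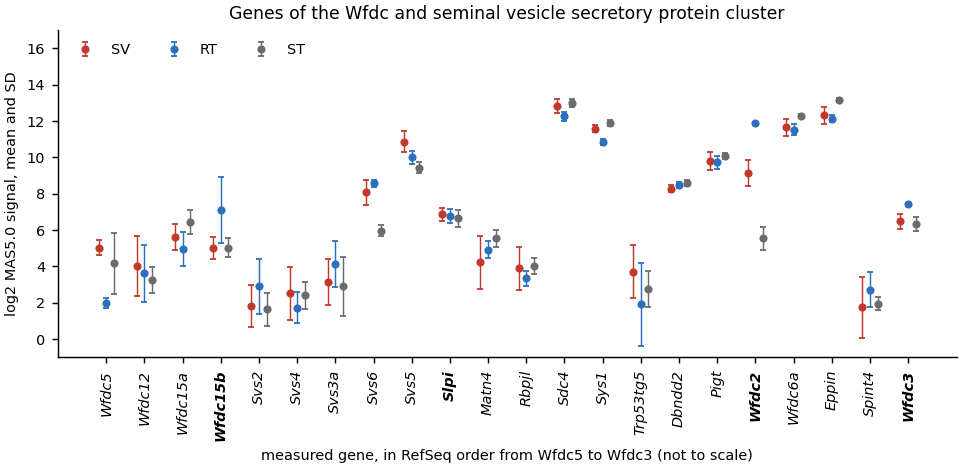
Mean log2 signal (y axis) of the 22 measured genes from Wfdc5 to Wfdc3 in RefSeq order (x axis, not to scale), in SV, RT and ST, with bars for the SD over arrays; member genes are in bold, and levels compare between regions of a gene, not between genes. Wfdc2 and Svs6 were above ST in both SV and RT, Svs5 was called above ST in SV, and Eppin was called below ST in RT.

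Of 18 other WAP-domain genes, 12 were measured, and none was called by limma between SV and ST, where 2 were lower at an unadjusted p under 0.05 and the methods' t-test with over 2-fold gave 0. In RT against ST, 1 was called lower and none higher. This was Eppin, a protease inhibitor of the epididymis and sperm surface, with 3980.2, 4329.7 and 5166 in RT against 9483, 8440.1, 9771 and 8854 in ST (-1.03 ± 0.21, limma adjusted p = 0.00248). That call was lost without RT replicate 1 or ST replicate 3, where the fold change is near the 2-fold threshold. In SV, Eppin had 3811, 4414, 8137 and 5064 and lay below every ST array, by -0.83 ± 0.19 (limma adjusted p = 0.0430), under 2-fold. Wfdc6a, the next gene to Eppin among those measured, had 2310.4, 2884, 4845 and 3312 in SV, against 4974, 4899, 5394 and 4895 in ST (-0.65 ± 0.20, limma adjusted p = 0.122). SV replicate 3 was the highest SV array in both, nearest to ST.

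Of 45 other secreted antimicrobial genes, 37 were measured. In SV against ST none was called by limma, its unadjusted p was under 0.05 for 4 genes higher in SV and 0 lower, and 2 were higher by the methods' t-test with over 2-fold. Of its brightest genes, the beta-defensin gene Defb19 gave -0.23 ± 0.17 (limma adjusted p = 0.666) and the lysozyme gene Lyz1 gave 0.08 ± 0.12 (limma adjusted p = 0.873). In RT against ST, 5 were called higher and 2 lower. Ccl28, a mucosal chemokine with antimicrobial activity, had 737, 788 and 233 in RT against 62.1, 97.1, 104 and 72.9 in ST (2.64 ± 0.39, limma adjusted p = 0.000247). The beta-defensin genes Defb8 (3.04 ± 0.85, limma adjusted p = 0.0173) and Defb42 (2.10 ± 0.56, limma adjusted p = 0.0130) were also higher in RT. Defb42 had 188, 251 and 51.9 in RT, so that replicate 3 was lowest, as for Ccl28 and Wfdc15b, and its call was lost without RT replicate 1 or 2; the call of Defb8 was lost without RT replicate 2 or 3 and with a floor of 32, where it gave 0.81. Chga, a granule protein whose fragments are antimicrobial, was lower in RT (-2.59 ± 0.60, limma adjusted p = 0.00596), by -1.50 with a floor of 32.

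Between SV and RT, 4 of these 37 genes were called higher in SV and 3 lower. Ccl28 (-2.22 ± 0.39, limma adjusted p = 0.00230) and Defb42 (-1.82 ± 0.56, limma adjusted p = 0.0452) were lower in SV. Reg3g, a secreted lectin that kills Gram-positive bacteria, had 74.6, 70.7, 13.0 and 33.4 in SV against 11.3, 6.22 and 5.22 in RT (2.44 ± 0.67, limma adjusted p = 0.0265). SV replicates 1 and 2 were the highest arrays of Reg3g, and its call was lost without either, without RT replicate 2 or 3, and with a floor of 32 (0.61). Chga was also called higher in SV (2.07 ± 0.60, limma adjusted p = 0.0355), a call that was lost in 11 alternative settings, among them a floor of 32 (0.99), log2(signal + 32), SV and RT fitted alone, and leaving out SV replicate 2, 3 or 4 or RT replicate 1.

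Proteases, receptors and partners of the secreted proteins were higher in RT where they were called. Of 20 listed, 19 were measured; 1 was called higher in SV than in ST, 4 were called higher in RT than in ST, SV was called below RT for 3, and none was called in the other direction. With the replicate block, 2 were called higher in SV than in ST, Prss8 added. Plscr1, a membrane protein that binds SLPI, had 439, 349, 199.97 and 366 in SV, 1455, 1414 and 831 in RT, and 109.6, 113, 76.0 and 153 in ST. The difference on the log2 scale was 1.57 ± 0.28 in SV against ST (limma adjusted p = 0.00934) and 3.45 ± 0.30 in RT against ST (limma adjusted p = 4.74e-06). Prss8, the epithelial serine protease prostasin, had 937, 874 and 489.8 in RT against 40.7, 22.9, 5.62 and 2.07 in ST (6.18 ± 0.88, limma adjusted p = 0.000184), a size that rests on the dim ST signals and was 4.44 with a floor of 32. Lrp2, a receptor that takes up lipocalin 2, was also higher in RT than in ST (4.26 ± 0.74, limma adjusted p = 0.000751, and 3.498 with a floor of 32), as was the related receptor gene Lrp1 (1.05 ± 0.11, limma adjusted p = 1.94e-05).

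Inducers and regulators known for these genes included several that were called higher outside ST. Of 23 listed, 21 were measured; 4 were called higher in SV and 6 in RT than in ST, none was lower in either, and for 2 SV was called below RT. Ehf, an epithelial ETS transcription factor gene, had 235, 146, 82.2 and 159 in SV, 744, 752 and 506 in RT, and 17.4, 32.4, 21.3 and 30.6 in ST. It was higher than in ST by 2.57 ± 0.33 in SV (limma adjusted p = 0.000990) and 4.74 ± 0.36 in RT (limma adjusted p = 1.67e-06). Cebpb, a C/EBP transcription factor gene of inflammatory responses, had 3333, 2816, 1919.6 and 2361 in SV, 4087, 3886 and 3239 in RT, and 1304, 1285, 953 and 1018 in ST. Cebpb gave a log2 fold change of 1.18 ± 0.17 in SV against ST (limma adjusted p = 0.00234) and 1.72 ± 0.19 in RT against ST (limma adjusted p = 2.13e-05). Socs3, a feedback inhibitor of cytokine signalling, had 882, 903, 1066 and 767 in SV against 159.7, 332, 552 and 317 in ST (1.53 ± 0.29, limma adjusted p = 0.0138). The Socs3 call was lost with a floor of 32 and with limma without the intensity trend. The interleukin 1 receptor gene Il1r1 was called in SV against ST (1.19 ± 0.26, limma adjusted p = 0.0310), but the call was lost without any 1 of SV replicates 1, 2 and 4, RT replicate 2 and the 4 ST arrays. Elf3, a relative of Ehf, was higher in RT than in ST (2.54 ± 0.32, limma adjusted p = 7.16e-05) and lower in SV than in RT (-1.76 ± 0.32, limma adjusted p = 0.00287).

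Other lipocalin and transferrin genes, relatives of Lcn2 and Ltf, were mostly not called. Of 16 listed, 13 were measured, and Rbp4, the retinol carrier of plasma, was the called gene among them. None was called by limma in SV against ST, where its unadjusted p was under 0.05 for 2 genes higher in SV and 3 lower, and the methods' t-test with over 2-fold gave 1 in each direction. Rbp4 had 226, 295, 280.1 and 404 in SV, 127, 128 and 142 in RT, and 474, 446, 365 and 525 in ST, and it was lower in RT than in ST (-1.77 ± 0.21, limma adjusted p = 4.00e-05) and higher in SV than in RT (1.16 ± 0.21, limma adjusted p = 0.00243). The brightest of these genes gave 0.52 ± 0.17 in SV against ST for the prostaglandin D synthase gene Ptgds (limma adjusted p = 0.163) and -0.78 ± 0.20 for the apolipoprotein gene Apod (limma adjusted p = 0.0671).

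Genes whose log2 signal followed each member most closely over the 11 arrays were searched among 11592 genes above the median signal; these Pearson correlations rest on 3 regions and carry no test. Wfdc18 was followed by Rasl10a (r = 0.98), Cadps (0.98) and Lrp11 (0.96). The mean signal of Cadps, which encodes a protein of dense-core vesicle release, was 466 in SV, 137 in RT and 138 in ST. Wfdc2 was followed by Pax8, Cfi and Stk26 (r above 0.99 in each), and complement factor I gene Cfi averaged 1465 in SV, 5747 in RT and 158 in ST. Wfdc1 was followed by Mxi1, Mtm1 and Fam53a (0.99 in each). Camp was followed by Sncb (0.93), Tmem150a (0.90) and the acid-sensing channel gene Asic2 (0.90). Lcn2 was followed by Wwtr1 (0.97), Apobec1 and Gadd45a (0.96 in each), Wfdc15b by Crispld2, Pias1 and Ckb (0.96 in each), and Wfdc3 by Golgb1 (0.97), Akap9 (0.96) and 1700029J07Rik (0.96). The closest to Ltf was Ier5l (0.91), ahead of Ptpru and Dusp14 (0.91 in each), and for Slpi they were Txndc17, Htr1b (0.86 in each) and Sod1 (0.85).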

How the data were processed

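RNA was purified by RNeasy Micro columns and turned into biotin-labelled cRNA by the authors, who deposited MAS5.0 signals, that is, intensity values scaled within each array. The signals were used as deposited, and detection calls were not used here, so dim genes are measured less well. Member genes and all gene lists were chosen with earlier results of these data known. Of the probe sets, 34958 carried 1 gene symbol, 932 several and 9211 none; 34754 of those with 1 symbol matched the RefSeq table by Entrez ID and 204 did not. Each gene was represented by the probe set with the highest mean log2 signal. Log2 signals of all 11 arrays were fitted with limma 3.58.1 (lmFit, eBayes with trend) in R 4.3.3, with Benjamini-Hochberg adjustment over 45101 probe sets. The labels number the biological replicates within each region. Neither they nor the methods state that arrays of equal number are paired. However, deviations from the region means correlated over 0.1 between all same-numbered arrays of SV and ST (0.144 to 0.190) and of SV and RT (0.100 to 0.148). Those of RT and ST did not all do so (0.0692 to 0.1495). A fit with the replicate number as a block therefore stands beside the SV results of members and of some lists. In lists given above without it, the block also called Prom1 higher in SV than in ST. Against RT, it also called Aard higher and Il6 lower in SV. The methods' test was Student's t-test with over 2-fold and p under 0.05, run here on log2 signals as an alternative. Without adjustment it called 1302 probe sets higher in SV and 5099 higher in RT than in ST. The paper took fold changes as ratios of signals and reports fewer in both, so its own counts were not reproduced. In simulated data, probe sets changed by a log2 fold change of 2 were called in 50% (SV against ST), 60% (RT against ST) and 36% (SV against RT). At this size 50 per comparison were changed among 45101, with 6 or 7 false calls. Fewer probe sets were changed than were called in the real data, and the simulated noise was independent between arrays. These shares therefore do not give the recovery in the real comparisons.

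Genes to name were all members and, per list and comparison, up to 4 called with the largest change or else the 2 brightest. To these were added the 3 genes most alike to each member and the genes from Wfdc5 to Wfdc3. Not all of them are named in the text, and several rete testis, duct and Sertoli cell markers are left out. S100a8, S100a9, Adam7, Wfdc17 and Wfdc21 were chosen after their values were seen. Figures were drawn with matplotlib 3.10.9 in Python 3.11.15.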

Additional observations from a re-analysis of the deposited data

How the results depend on the processing

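No call or fold change of a member that was called changed direction under any alternative run. Of 666 fold changes recomputed under alternatives, 633 moved by less than 1 SD between replicates and 33 by more. Many of the 666 could not move. Another test, no fold threshold or a left-out array of the third region keeps the same difference of region means. The count of 633 is therefore no measure of steadiness. In SV against ST, 2 members were called higher; the methods' t-test with Benjamini-Hochberg adjustment called 1 (Wfdc18), and replicates 3 and 4 alone called 0. It was 3 with the methods' t-test without adjustment, log2(signal + 32), a floor of 32, the 2 regions alone and each block (Camp added), and without the fold threshold (Lcn2 added). Replicates 3 and 4 alone called 0 probe sets of 45101 in SV against ST and in SV against RT, with 1786 and 3172 higher at an unadjusted p under 0.05. None was called lower in SV than in ST, but 1, Wfdc1, was without the fold threshold and with replicates 1 and 2 alone. In RT against ST, 3 were called higher, and quantile normalization, median centring and replicates 3 and 4 alone each called 1 (Wfdc2). In SV against RT, 3 were called higher and replicates 3 and 4 alone called 0. The 1 called lower in SV than in RT became 2 with log2(signal + 32), 3 with replicates 1 and 2 alone and 0 with replicates 3 and 4 alone. Leaving out each array in turn gave 2 to 3 higher and 0 lower in SV against ST, 1 to 4 higher and 1 lower in RT against ST, and 2 to 3 higher and 1 to 2 lower in SV against RT. The lowest of these, 1 higher in RT against ST, came without RT replicate 2, and the 2 lower in SV against RT came without SV replicate 4 (Wfdc3) or RT replicate 3 (Wfdc15b). The cause of these changes was not tested.

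Same-numbered arrays deviated together in SV and ST and in SV and RT, and 10 of 11 arrays correlated best with their own number, but other numbers of the same set correlated at 0.0698 to 0.178 too. Arrays of replicates 1 and 2 against those of replicates 3 and 4 correlated at -0.179 to -0.0761. These are the 2 sets, and RT replicate 3 is the only RT array of the second. With the replicate block, and with the 2 sets of replicates as a block, SV was called below RT for 3 members in each (Wfdc2, Wfdc3 and Wfdc15b) in place of 1, and Camp was called in SV against ST; no other call of a member changed. Over all probe sets, the block moved the calls in SV against ST to 995 higher and 104 lower, beside 675 and 30 without it. Other splits by scaling were 2812 higher and 5254 lower in RT against ST with median centring and 3482 higher and 3535 lower with quantile normalization, beside 4607 and 2473 as deposited. In SV against RT these were 2710 and 1349 with centring and 1919 and 1731 with quantile normalization, beside 1332 and 2251. Averaged over all arrays, the log2 signals of Camp, Ltf, Slpi, Wfdc15b and Wfdc3 lie near or below the median probe set. A difference of these sizes between pools of 3 or 4 arrays is known only coarsely.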
